A study of Mus musculus with 9 samples.

Results

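The miR-183 cluster consists of mmu-miR-183, mmu-miR-96 and mmu-miR-182, written below without the species prefix, which are 3 of the 1164 mouse miRNA entries counted in small extracellular vesicles (smEVs). The members were taken as the named cluster, by a rule that uses no measured value, but with earlier results of these data known. All 3 had counts in each of the 9 libraries. The smEVs were pelleted from the medium of immortalised kidney medullary (KM) cells, lines made from the inner part of the mouse kidney. Libraries were made from 3 pellets each of Bbs4-/-, Bbs6-/- and wild-type (WT) cells, all serum starved for 24 h, a treatment that induces cilia. The BBSome, a coat-like adaptor that carries membrane proteins in and out of cilia, has Bbs4 among its subunits, and Bbs6 is a chaperonin-like protein on which its formation depends. Each genotype was represented by 1 cell line, so genotype and line cannot be told apart.

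The members are processed from a shared primary transcript and are named together as a polycistronic cluster. They are best known from ciliated sensory cells, the hair cells of the inner ear and the photoreceptors of the retina, and they are also expressed in epithelia and in many carcinomas. A miRNA recognises its target mRNAs mainly through its seed, bases 2 to 8 from the 5′ end, so miRNAs with related seeds share predicted targets.

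In GRCm38 the hairpins lie on the minus strand of chromosome 6. The miR-183 hairpin (gene Mir183) spans chr6:30169668-30169737, the miR-96 hairpin (Mir96) chr6:30169446-30169551 and the miR-182 hairpin (Mir182) chr6:30165918-30165992. A gap of 116 bp separates miR-183 from miR-96, 3453 bp separate miR-96 from miR-182, and the whole cluster spans 3820 bp. In GENCODE vM21 the hairpins overlap no other gene, and they lie between the protein-coding genes Nrf1, which ends 12459 bp away on the side of miR-182, and Ube2h, 41551 bp away on the side of miR-183. RefSeq places all 3 inside the long non-coding RNA gene Mirc35hg, at chr6:30158640-30174125.

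The mature 5p arms, from RefSeq (GRCm38.p6), are shown to compare their seeds, which are in capitals.
miR-183-5p: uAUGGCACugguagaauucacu
miR-96-5p: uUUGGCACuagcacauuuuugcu
miR-182-5p: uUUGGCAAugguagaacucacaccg

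Bases 1 to 7 of miR-96 and miR-182 are identical, and their seeds differ only at the last base. The seeds of miR-183 and miR-96 are identical at 6 of 7 bases and those of miR-183 and miR-182 at 5 of 7. Outside the seed, miR-183 resembles miR-182 more than miR-96. Aligned from base 1 without gaps, miR-183 and miR-182 are identical at 18 of 22 bases, miR-183 and miR-96 at 13 of 22, and miR-96 and miR-182 at 12 of 23. One further mouse miRNA in RefSeq, miR-1271-5p, has the seed of miR-96, and it has no entry of its own in the count table.
miR-1271-5p: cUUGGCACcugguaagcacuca

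The hairpins show how each mature pair lies in its precursor, with both arms in capitals.
Mir183: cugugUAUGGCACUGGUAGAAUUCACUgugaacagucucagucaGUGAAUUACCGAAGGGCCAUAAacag
Mir96: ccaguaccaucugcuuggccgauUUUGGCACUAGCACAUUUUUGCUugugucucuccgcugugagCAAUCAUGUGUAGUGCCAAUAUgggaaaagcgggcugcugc
Mir182: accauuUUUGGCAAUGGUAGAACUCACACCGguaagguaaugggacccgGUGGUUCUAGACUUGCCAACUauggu

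No entry of the count table names an arm. Of the 1164 entries, 1026 match a RefSeq mature name once its arm is removed, and only the largest count was kept where a miRNA had several entries. A value therefore stands for the miRNA as named, and whether reads of the 3p arm are part of it is not given in the sources used here.

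Libraries of Bbs4-/- smEVs held 176935 to 457163 counts, those of Bbs6-/- smEVs 192654 to 423784 and those of WT smEVs 64118 to 130905, and the deepest WT library held fewer counts than the shallowest mutant one. Levels below are counts scaled to a common library size (CPM), with edgeR's trimmed mean of M-values (TMM) over the 9 libraries, which corrects for a few abundant miRNAs taking a different part of each library. A pellet yields one mixture, so fewer vesicles that carry a miRNA and less of it per vesicle cannot be told apart. Of 7 epithelial markers, miR-200b averaged 8389 CPM or more in each genotype, while miR-200c averaged 12.1 CPM in WT. The 7 mesenchymal markers summed to at most 331.4 CPM in a library, with miR-145a and miR-214 at 0. The 7 blood markers summed to between 2734 and 5062 CPM in a library. Among them miR-16 averaged 3064 to 3896 CPM in a genotype and the erythroid marker miR-451a 5.49 to 49.1 CPM. The 8 renal tubule markers summed to between 81210 and 85870 CPM in Bbs4-/- libraries, and to between 49140 and 63780 CPM in the others. Of these, miR-30a alone averaged 45966 CPM in Bbs4-/-, 29225 in Bbs6-/- and 28643 in WT. By contrast, miR-192, miR-194 and miR-215 each averaged 164.8 CPM or less in every genotype.

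The cluster was an abundant part of the vesicle miRNA. miR-182 was the third most abundant entry by mean level, at 64090 ± 9466 CPM (SD, n = 9), between let-7f at 75103 and miR-10a at 55999 CPM. miR-183 was in place 7, at 35420 ± 7503 CPM, between let-7a and miR-30a. miR-96 was in place 68, at 968 ± 330 CPM, between miR-106b and miR-652. Together the members took 7.84% to 13.4% of all miRNA counts in a library.

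mmu-miR-182, whose seed differs from that of miR-96 only at its last base, measured 68573, 48257 and 58679 CPM in the Bbs4-/- libraries, 58752, 59528 and 75894 CPM in the Bbs6-/- libraries, and 58949, 73130 and 75045 CPM in the WT libraries. The group means were 58503 ± 10159, 64724 ± 9681 and 69042 ± 8793 CPM (SD, n = 3 each). WT had the highest mean and Bbs4-/- the lowest, but the ranges of all 3 genotypes overlapped. On this scale 6.15% of 309 miRNAs were lower in all 6 mutant libraries than in all WT libraries, and none of the members was among them.

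mmu-miR-183 measured 41812.5, 33749 and 39499.5 CPM in Bbs4-/-, 30923, 25588 and 40021 CPM in Bbs6-/-, and 23876, 46183 and 37125 CPM in WT. The means were 38354 ± 4152, 32177 ± 7298 and 35728 ± 11219 CPM (SD, n = 3 each). WT replicate 1 was the lowest of the 9 libraries and WT replicate 3 the highest, so the spread within WT covered the range of both mutants.

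mmu-miR-96, the scarcest member, measured 626, 891 and 878 CPM in Bbs4-/-, 807, 1083 and 1640.1 CPM in Bbs6-/-, and 523, 1149 and 1112 CPM in WT. The means were 798 ± 149, 1177 ± 424 and 928 ± 351 CPM (SD, n = 3 each). The lowest level was again that of WT replicate 1, where it rests on 43 counts (exact 95% Poisson interval 31.1 to 57.9, counting error only). The highest was in Bbs6-/- replicate 4, with 573 counts, and every pair of genotypes overlapped.

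**Figure D1:**
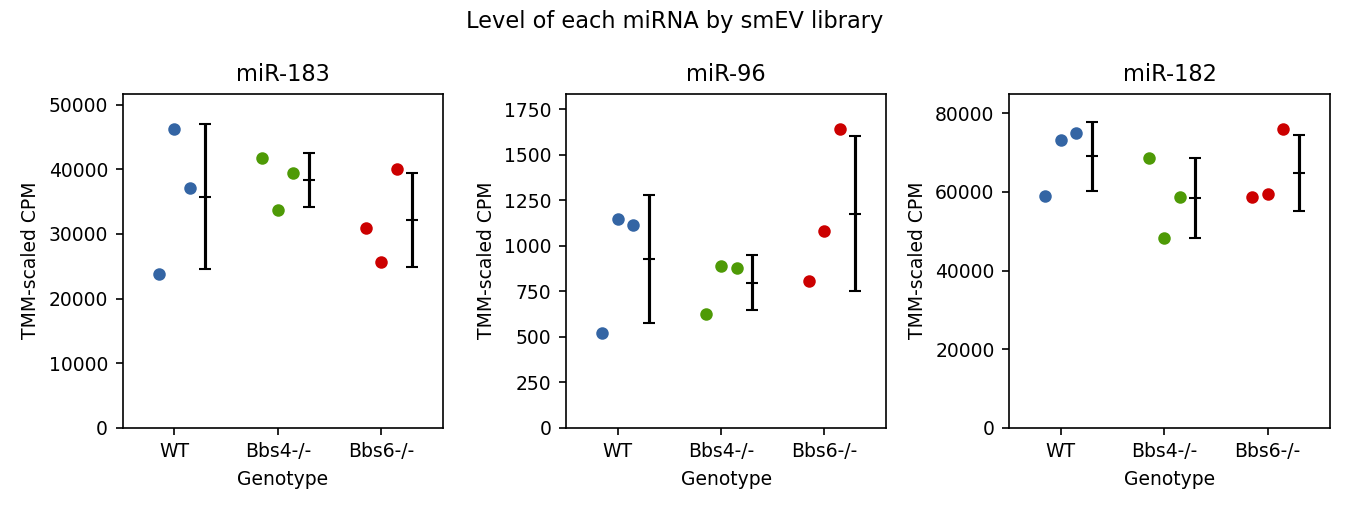
TMM-scaled CPM (vertical axes, from 0) of miR-183, miR-96 and miR-182 in each smEV library (points), grouped by genotype, with the mean and SD of 3 libraries in black. The 3 genotypes overlap for each miRNA, and WT replicate 1 is the lowest library for miR-183 at 23876 CPM and for miR-96 at 523 CPM.

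The spread between pellets was wider than counting error. The coefficient of variation (CV) of miR-182 within a genotype was 12.7% to 17.4%, where counting alone gives 0.793% to 1.17%. For miR-183 it was 10.8% in Bbs4-/-, 22.7% in Bbs6-/- and 31.4% in WT, against 1.07% to 1.71% from counting. miR-96 varied by 18.7%, 36.1% and 37.9%, of which counting gives 7.70%, 6.25% and 11.1%. Among miRNAs whose counts totalled 90 or more, the median CV was 19.8% in Bbs4-/-, 26.7% in Bbs6-/- and 25.5% in WT. miR-182 was steadier than this median in each genotype, while miR-96 varied more than it in Bbs6-/- and WT. Most of these miRNAs were less abundant than miR-182, counting error is larger at low counts, and no comparison at matched abundance was made.

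Each mutant was compared with WT to ask whether loss of a BBS protein changes the miRNA load of smEVs. edgeR's quasi-likelihood test was run on the 6 libraries of each comparison over all miRNAs whose counts summed to 6 or more. To be called, a miRNA had to pass both thresholds of the study, a p below 0.1 after Benjamini-Hochberg adjustment and a log2 fold change not between -2 and 2. TMM was computed anew for the libraries of each fit, so a fold change can differ slightly from the ratio of the levels above. In Bbs4-/-, 6.17% of 308 miRNAs were called and 0 of the 3 members. In Bbs6-/-, 4.03% of 298 were called and again 0 members. At an unadjusted p under 0.05, where edgeR gave 26.0% of the miRNAs in Bbs4-/- and 22.1% in Bbs6-/-, edgeR, DESeq2 and limma-voom each gave 0 members in either comparison.

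For miR-182 the log2 fold change in Bbs4-/- was -0.35 (95% confidence interval -0.79 to 0.08, adjusted p = 0.304, edgeR), and in Bbs6-/- it was -0.07 (-0.47 to 0.33, adjusted p = 0.875, edgeR). For miR-183 it was -0.01 in Bbs4-/- (-0.52 to 0.49, adjusted p = 0.994, edgeR) and -0.11 in Bbs6-/- (-0.63 to 0.41, adjusted p = 0.829, edgeR). The sign of the miR-183 value in Bbs4-/- changed with the test, the filter and the scaling. For miR-96 it was -0.34 in Bbs4-/- (-1.03 to 0.36, adjusted p = 0.538, edgeR) and 0.39 in Bbs6-/- (-0.44 to 1.22, adjusted p = 0.610, edgeR), which became -0.05 with total counts. Leaving out 1 library moved miR-96 to between -0.47 (without WT replicate 1) and -0.037 (without Bbs4-/- replicate 1) in Bbs4-/-, and to between 0.0067 (without Bbs6-/- replicate 4) and 0.62 (without Bbs6-/- replicate 2) in Bbs6-/-. The intervals of all 6 values lie inside the limits of -2 and 2, and those of miR-182 and miR-183 also inside -1 and 1. Each of the 6 intervals includes 0.

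Most miRNAs tested were far less precisely measured than the members. The median width of the 95% interval was 2.93 in Bbs4-/- and 3.36 in Bbs6-/-, against 0.801 to 1.66 for the members. Shares over all miRNAs therefore set the members beside many noisier entries. The neighbours of miR-182 and miR-183 in abundance had log2 fold changes in Bbs4-/- of 0.29 (let-7f), 0.86 (miR-10a), 0.58 (let-7a) and 0.57 (miR-30a). In Bbs6-/- these were 0.66, 1.27, 1.01 and 0.05. The median size of the log2 fold change over all miRNAs tested was 0.77 in both comparisons, and 27.9% of the miRNAs in Bbs4-/- had a smaller change than miR-182, 26.6% than miR-96 and 0.974% than miR-183. In Bbs6-/- the shares were 5.37%, 27.9% and 9.06%. The median of the members was -0.34 in Bbs4-/- and -0.07 in Bbs6-/-, beside -0.02 and -0.01 over all miRNAs. Both comparisons use the same WT libraries.

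**Figure D2:**
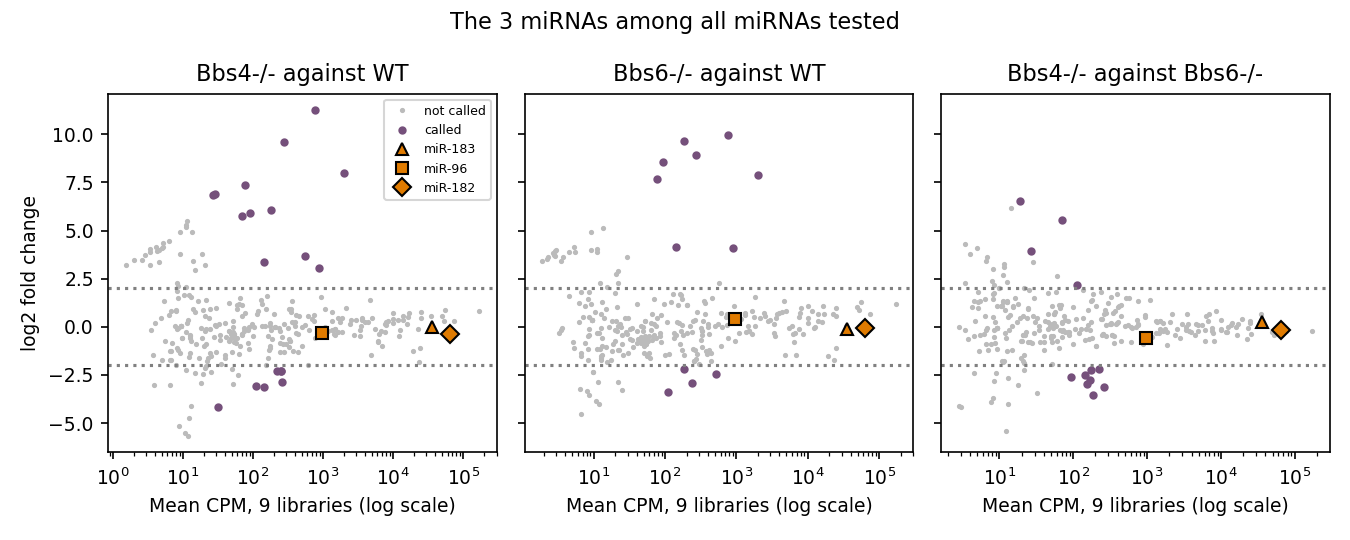
log2 fold change (vertical axis) against mean TMM-scaled CPM over 9 libraries (horizontal log axis) for every miRNA tested in each contrast. Grey points were not called, purple points were called, orange symbols are the members, and dotted lines mark -2 and 2; the members lie near 0, with miR-182 and miR-183 at the abundant end.

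The mutants were also compared with each other, in a fit of all 9 libraries over 309 miRNAs, of which 3.88% were called and 0 members. At an unadjusted p under 0.05 edgeR gave 16.2% of the miRNAs, and edgeR, DESeq2 and limma-voom each gave 0 members. miR-96 had the widest difference, with a log2 fold change of -0.56 in Bbs4-/- relative to Bbs6-/- (95% confidence interval -1.29 to 0.17, adjusted p = 0.453, edgeR). Without Bbs6-/- replicate 2, its lowest Bbs6-/- library, the value was -0.85 (adjusted p = 0.105, edgeR), and without Bbs6-/- replicate 4, its highest, it was -0.24 (adjusted p = 0.864, edgeR). miR-182 was at -0.15 (-0.57 to 0.28, adjusted p = 0.794, edgeR) and miR-183 at 0.25 (-0.27 to 0.77, adjusted p = 0.703, edgeR).

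The picture for miR-182 depended on the scaling. As a plain share of all miRNA counts, miR-182 made up 7.56%, 7.73% and 8.87% of the WT libraries. The share was 6.13%, 5.05% and 5.51% in Bbs4-/- and 5.56%, 5.41% and 6.26% in Bbs6-/-. All 6 mutant libraries lay below all 3 WT libraries. The exact 95% binomial intervals of the nearest ones, 6.18% to 6.33% in Bbs6-/- replicate 4 and 7.36% to 7.77% in WT replicate 1, did not meet. These intervals cover counting error only and leave out the spread between pellets, which was wider. Of 309 miRNAs, 11.0% were lower by share in all mutant libraries in this way.

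The summed share of the cluster showed the same order. It was 10.7%, 12.7% and 13.4% in WT, 9.92%, 8.68% and 9.31% in Bbs4-/-, and 8.56%, 7.84% and 9.69% in Bbs6-/-, again with no overlap between WT and the mutants. miR-182 held most of this sum, at a mean of 6.45% of counts beside 10.1% for the 3 together. The order is thus largely that of miR-182 and no separate result, and 11.0% of 309 miRNAs were likewise lower in all mutant libraries. miR-183 alone did overlap, at 3.06% to 4.88% in WT, 3.53% to 3.74% in Bbs4-/- and 2.33% to 3.30% in Bbs6-/-. The share of miR-96 was 0.0671% to 0.131% in WT, and the ranges of both mutants, 0.0560% to 0.0934% and 0.0763% to 0.135%, overlapped it.

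**Figure D3:**
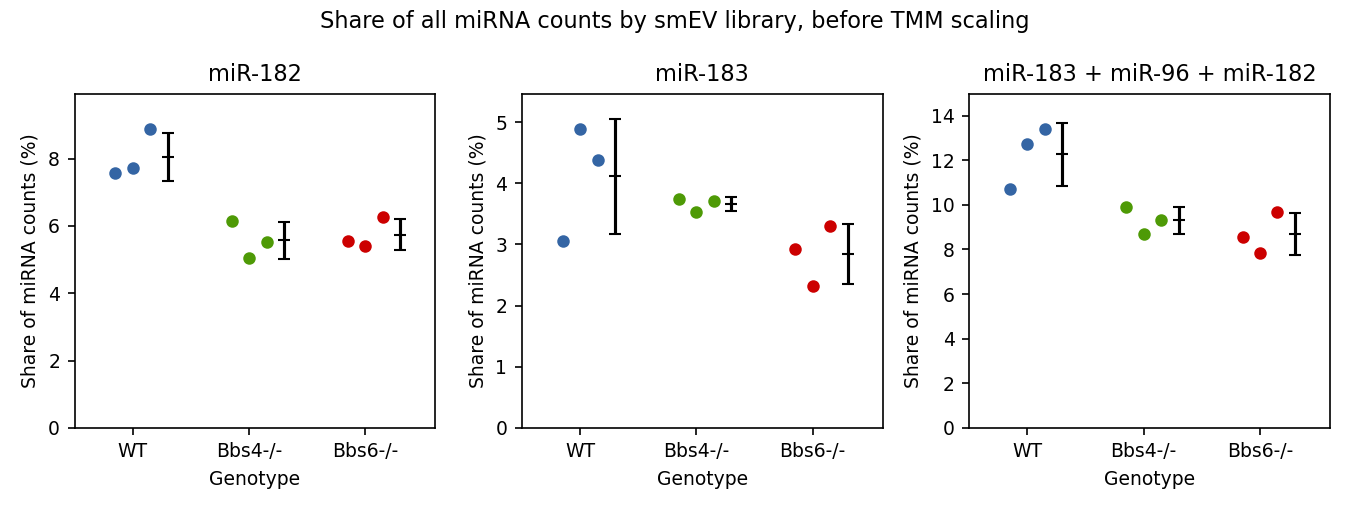
Share of all miRNA counts in percent (vertical axes, from 0) of miR-182, miR-183 and the 3 members together in each library (points), with the mean and SD of 3 libraries per genotype in black. For miR-182 the WT libraries, from 7.56% to 8.87%, lie above all mutant libraries, from 5.05% to 6.26%.

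When edgeR was run on total counts without TMM, miR-182 had a log2 fold change of -0.53 in Bbs4-/- (95% confidence interval -0.84 to -0.23, adjusted p = 0.0251, edgeR) and of -0.49 in Bbs6-/- (-0.82 to -0.15, adjusted p = 0.0738, edgeR). By this rule, an adjusted p under 0.1 at any fold, 9.42% of miRNAs were lower in Bbs4-/- and 9.06% in Bbs6-/-. Both values of miR-182 were well short of the fold threshold. miR-183 and miR-96 had adjusted p of 0.178 or more. Total-count scaling moved the median log2 fold change of all miRNAs to -0.20 in Bbs4-/- and -0.44 in Bbs6-/-. Relative to that median miR-182 was at -0.34 in Bbs4-/- and -0.05 in Bbs6-/-, and miR-183 at 0.03 and -0.09. The calls over all miRNAs went from 12 higher and 7 lower to 12 and 11 in Bbs4-/-, and from 8 higher and 4 lower to 8 and 9 in Bbs6-/-.

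The TMM factors were 1.06 to 1.28 in WT, 0.894 to 1.05 in Bbs4-/- and 0.824 to 0.946 in Bbs6-/-. miR-21a, the most abundant entry, held 11.3% to 12.0% of the WT counts, 17.1% to 20.1% of the Bbs4-/- counts and 17.9% to 22.9% of the Bbs6-/- counts. With miR-21a left out of the totals, a setting added after the shares were seen, miR-182 was at -0.42 in Bbs4-/- (adjusted p = 0.0711, edgeR) and -0.35 in Bbs6-/- (adjusted p = 0.216, edgeR). The summed level of the 7 epithelial markers was also apart, at 10470 to 13490 CPM in WT and 16580 to 21870 CPM in the mutants, and its part in the lower share of miR-182 was not tested. The largest parts of that gap were miR-200c and miR-200b. miR-200c averaged 12.1 CPM in WT, 3307 in Bbs4-/- and 2748 in Bbs6-/-. miR-200b averaged 8389 CPM in WT, 10355.5 in Bbs4-/- and 11384 in Bbs6-/-, where its difference from WT was the larger of these. miR-200c and miR-141 were called higher in both mutants and miR-203 lower in Bbs4-/-, at 64.8 against 306.8 CPM in WT, while miR-200a, miR-200b and miR-429 were called in neither. Of the tested tubule, mesenchymal and blood markers 0 were called against WT. The counts give proportions within a library only, so a lower share of miR-182 cannot be told apart from a higher share of other miRNAs.

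**Figure D4:**
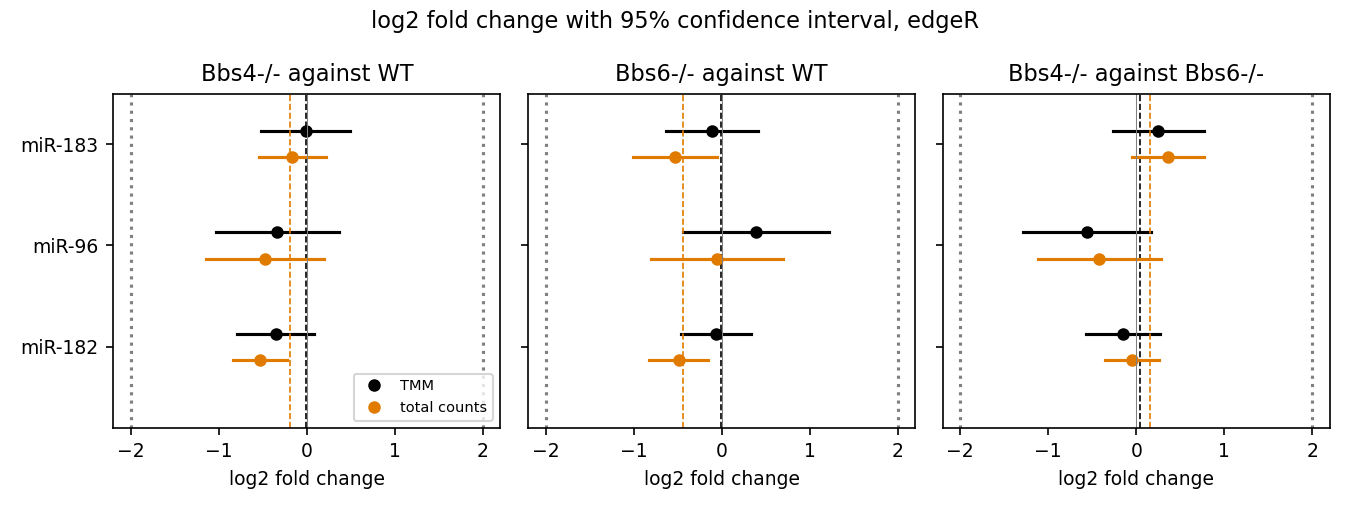
log2 fold change (horizontal axes) of each member with its 95% confidence interval (lines), from edgeR with TMM (black) and with total counts (orange), for the 3 contrasts. Dashed lines give the median of all miRNAs under each scaling, and dotted lines mark -2 and 2; miR-182 moves from -0.35 to -0.53 in Bbs4-/- and from -0.07 to -0.49 in Bbs6-/- when TMM is left out.

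Ratios between members of the same library do not depend on scaling, and they show how unequally the mature products of the cluster were represented. miR-182 exceeded miR-183 in every library, by 1.43- to 2.47-fold. miR-96 was far scarcer, with miR-182 at 46.3 to 113 times and miR-183 at 23.6 to 66.8 times its count. The order miR-182, miR-183, miR-96 was the same in all 9 libraries. Ratios of counts also carry any difference in how well each sequence is captured in library preparation, which was not tested.

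Relative to miR-182, miR-183 had log2 ratios of -0.71, -0.52 and -0.57 in Bbs4-/-, -0.93, -1.22 and -0.92 in Bbs6-/-, and -1.30, -0.66 and -1.02 in WT. The Bbs4-/- libraries lay above all Bbs6-/- libraries, with a mean of -0.60 ± 0.10 against -1.02 ± 0.17 (SD, n = 3 each), while WT overlapped both at -0.99 ± 0.32. At a threshold of 0.05 the difference between the genotypes did not pass the exact permutation test over the 280 partitions of the libraries (F = 3.53, one-sided, p = 0.157, adjusted over the 3 ratios p = 0.236). Without WT replicate 3 the exact permutation p was 0.0214 (adjusted p = 0.0643).

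The log2 ratio of miR-96 to miR-183 averaged -5.60 ± 0.42 in Bbs4-/-, -4.81 ± 0.39 in Bbs6-/- and -5.30 ± 0.23 in WT (SD, n = 3 each). It was highest in Bbs6-/- replicates 3 and 4, at -4.56 and -4.61, while Bbs6-/- replicate 2, at -5.26, lay among the others (exact permutation test, one-sided, p = 0.0750, adjusted p = 0.225). Without that library the exact permutation p was 0.0286 (adjusted p = 0.0857). For miR-96 to miR-182 the means were -6.20 ± 0.52, -5.83 ± 0.33 and -6.30 ± 0.45, and the genotypes overlapped (exact permutation test, one-sided, p = 0.432, adjusted p = 0.432). Between single pairs of genotypes an exact permutation test of 3 against 3 cannot go below 0.10, and none of the 9 pairwise differences passed after adjustment.

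**Figure D5:**
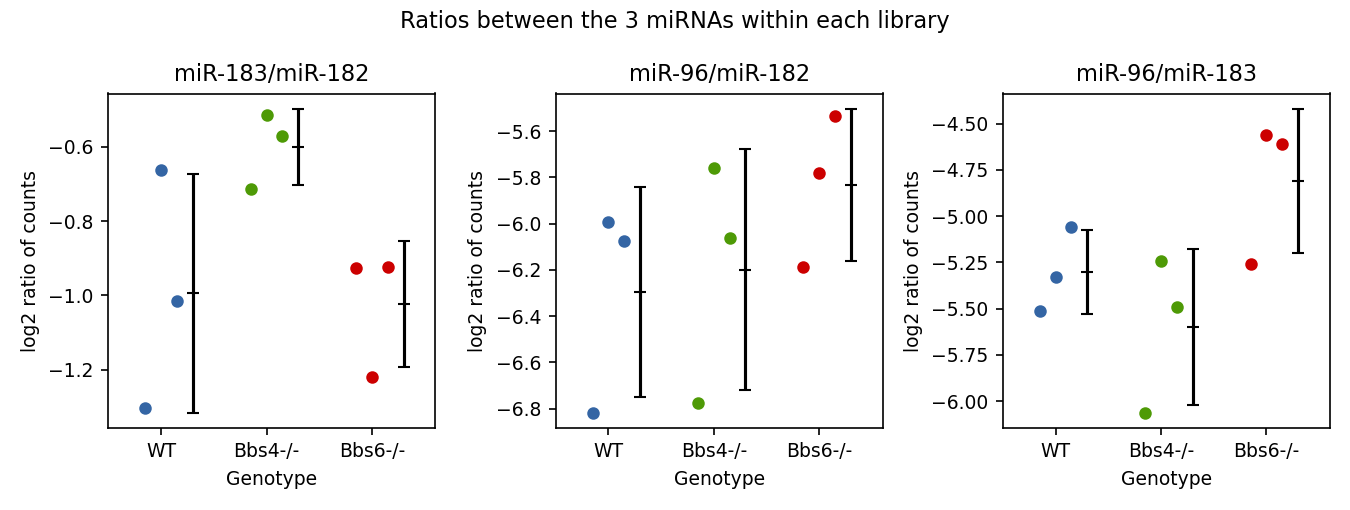
log2 ratio of counts (vertical axes, not starting at 0) between members within each library (points), grouped by genotype, with the mean and SD of 3 libraries in black. miR-183/miR-182 lies from -0.71 to -0.52 in Bbs4-/- and from -1.22 to -0.92 in Bbs6-/-, and the other ratios overlap between all genotypes.

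Pooled over the genotypes, deviations from each genotype's mean tended to go the same way for the members, but not for miR-96 in Bbs4-/-. There, replicate 1 was the highest library for miR-183 and miR-182 and the lowest for miR-96, at 626 CPM. Replicate 2 was the lowest for miR-183 and miR-182 and the highest for miR-96, at 891 CPM. After each genotype's mean was subtracted from log2 CPM, Pearson's r over the 9 libraries was 0.80 between miR-183 and miR-182, 0.71 between miR-183 and miR-96 and 0.48 between miR-96 and miR-182. Without that step it was 0.53, 0.42 and 0.46. These are descriptions over libraries that share their scaling. No other miRNA pairs were compared after centring, so the tendency is not shown to be particular to the cluster. The most similar patterns among 179 other miRNAs of at least 90 counts in total were then taken by r without that step, and by this measure no member was among the closest 3 of another. The level of miR-182 was most like that of miR-324 (r = 0.82), miR-221 (0.74) and miR-193a (0.67). For miR-183 the closest were miR-23a (0.73), miR-674 (0.69) and miR-126a (0.65), and for miR-96 miR-200a (0.79), miR-29a (0.75) and miR-132 (0.72).

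Among 14 other miRNAs listed for ciliated or sensory epithelium, 9 were tested in each comparison with WT. The list was chosen with earlier results of these data known, so its calls and medians are descriptions and test no enrichment. miR-34b and miR-34c, which act in the formation of motile cilia, were called higher in both mutants, and 0 were called lower, where 3.90% of all miRNAs were called higher in Bbs4-/- and 2.68% in Bbs6-/-. miR-34b had 0 counts in WT, 33 in the Bbs4-/- libraries together and 208 in Bbs6-/-, and miR-34c had 0, 32 and 460. Set against a floor of 3 counts over the WT libraries, miR-34c was 4.59-fold higher in Bbs4-/- and 65.0-fold higher in Bbs6-/-. The floor bounds only the WT zero, and these values leave out the counting error of the mutant counts and the spread between pellets. The median log2 fold change of the tested miRNAs was 0.46 in Bbs4-/- and 1.42 in Bbs6-/-, or 0.37 and 1.23 with the miRNAs absent from WT set at that floor. miR-449a, miR-449b and miR-449c, which share the role of miR-34, had no count in any library, and miR-204, expressed in the retinal pigment epithelium, averaged 21.0 to 54.7 CPM. The most abundant of the list, miR-181a, averaged 1526 CPM in Bbs4-/-, 2966 in Bbs6-/- and 1028 in WT. miR-182 and miR-183 were above these means in every library, while miR-96 averaged less than miR-181a in each genotype.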

How the data were processed

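Small RNA from smEV pellets was sequenced in 9 libraries. The authors trimmed adapters (cutadapt 1.9), removed low-quality reads, collapsed reads identical in sequence and molecular identifier, counted the rest per miRNA with miRDeep2 (mapper 2.0.0.8) and deposited these counts without normalization. Binomial and Poisson intervals cover counting error only. The miRBase release is not given in the sources used here.

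Columns were grouped by genotype. Replicate numbers in the text are those of the deposited columns, which for Bbs6-/- and WT are not those of the sample labels. The study describes the pellets as independent. Replicates differed by more than sampling noise (chi-square per degree of freedom 12.4 to 110 over 9 pairs).

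R 4.3.3 was used with edgeR 4.0.16 (TMM, quasi-likelihood test, Benjamini-Hochberg adjustment), and DESeq2 1.42.0 and limma 3.58.1 as alternatives, all tested on simulated data. A miRNA entered a fit with a total of at least 6 counts over 6 libraries, or 9 over 9. Intervals of log2 fold changes used the coefficient divided by the square root of F as standard error. Other alternatives were DESeq2's size factors, total counts with and without miR-21a, scaling without the members, no filter, filterByExpr, another set of libraries, robust spread, 20 thinned draws, a replicate block and leaving out each library. Named miRNAs are the members, their neighbours in abundance, the 3 most similar in pattern, seed relatives and listed markers. The members, lists and tests were chosen with earlier results of these data known. Figures were drawn with matplotlib 3.10.9.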

Additional observations from a re-analysis of the deposited data

How the results depend on the processing

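None of the members was called under any of the 171 alternative values of their log2 fold changes, of which 153 kept their sign and 18 did not. Most sign changes concerned miR-183 in Bbs4-/- against WT, whose value lay near 0. It was 0.043 with DESeq2, 0.026 with limma-voom, 0.043 with DESeq2's size factors, 0.076 with no filter, 0.0027 with filterByExpr, 0.10 with all 9 libraries and 0.031 after thinning to the smallest library, and -0.10 to 0.23 with each library left out. Leaving out libraries also took miR-183 in Bbs6-/- from -0.40 to 0.028, miR-182 in Bbs6-/- from -0.26 to 0.040, and miR-183 in Bbs4-/- against Bbs6-/- from -0.010 to 0.44. With total counts miR-96 in Bbs6-/- was at -0.050. No cause of these changes was tested.

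With the replicate number as a block, miR-183 in Bbs4-/- was at 0.26 and miR-96 at 0.083, miR-96 between the mutants was at -0.12 (adjusted p = 0.953, edgeR), and 20 miRNAs were called in Bbs6-/- in place of 12. The main fit did not take the numbers as pairs. To look at the numbers, each genotype's mean was subtracted from log2 CPM and only libraries of different genotypes were correlated. Of 6 same-numbered pairs 4 had a correlation over 0.1 (from -0.15 to 0.35), and 7 of 9 libraries correlated best with their own number. Some pairs of different number also exceeded 0.1, up to 0.13 between Bbs4-/- replicate 3 and Bbs6-/- replicate 4. Whether libraries of the same number share a batch was not tested. The block changed no call of a member.

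Leaving out each library gave 8 to 18 calls in Bbs6-/- and 7 to 17 between the mutants, where 12 were called. Without Bbs4-/- replicate 1 there were 7. The p of the ratio of miR-183 to miR-182 ranged from 0.0214 to 0.246 over 12 alternatives, that of miR-96 to miR-183 from 0.0286 to 0.243 and that of miR-96 to miR-182 from 0.296 to 0.814 (exact permutation tests), and none was under 0.05 after adjustment. Depth limits miR-96 most, with 43 counts in the shallowest WT library.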
